A study of Mus musculus with 10 samples.

Results

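Cultured bone marrow stroma was compared with freshly sorted stroma that lacks the Scf-GFP reporter, by the sites of open chromatin that ATAC-seq lists in each. ATAC-seq uses a transposase that inserts into accessible DNA, and the places where its fragments pile up are called as peaks. The comparison takes 8 of the 10 libraries of the series: 3 of rMSC, 3 of control cultures and 2 of Scf-GFP-negative stroma. Libraries were assigned by their titles, and the comparison is restricted to chromosomes 1 to 19 and X. All cells came from C57BL/6J mice. The rMSC are stroma in culture given the genes Xbp1, Irf3, Irf7, Klf7 and Ostf1, control cultures received a control vector, and the growth protocol in the labels seeds cultures from CD45- Ter119- CD31- Scf-GFP+ marrow cells in medium with 20% fetal bovine serum and 10 ng/ml FGF-basic. The Scf-GFP-negative cells were sorted from marrow as CD45- Ter119- CD31- Scf-GFP-, carried no transduced gene and were not cultured. Culture, vector and the Scf-GFP status of the starting cells therefore differ together and cannot be told apart in this comparison. Nothing in the labels ties a replicate to its own mouse or culture dish, and a p-value here reflects the spread among libraries, possibly a technical one.

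Scf is stem cell factor, the product of Kitl, which binds the receptor Kit on blood stem and progenitor cells. In the marrow it is made mainly by perivascular mesenchymal cells that also make Cxcl12 and express Lepr, and by endothelium. The CD45, Ter119 and CD31 gates remove most leukocytes, red cells and endothelium, but immature cells of the red lineage can lack both CD45 and Ter119. Mesenchymal cells plated in serum spread, form actin stress fibres and lay down matrix, and factors of the AP-1 and TEAD families occupy many of the distal sites that are open in such cells.

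Each library had 1 deposited peak list, with 66282, 70975 and 78489 peaks in rMSC, 48417, 75376 and 72791 in control cultures and 46947 and 39936 in Scf-GFP-negative stroma. Lists were trimmed to the 39912 strongest peaks of each library by the authors' −log10 p. Equal length does not give equal strength: the weakest peak kept had a −log10 q of 4.615 to 5.802 in cultured libraries, against 2.653 and 2.097 in Scf-GFP-negative libraries. Loci that passed in equal lists, in all deposited peaks and in peaks with a −log10 q of at least 5 are therefore also counted below. This is done for all tested loci and for part of the gene lists. Counts of loci without a stated list describe equal lists only. A site missing from a list can be open and undetected. In bulk samples, fewer cells with an open site and weaker opening in each cell cannot be told apart.

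A promoter was counted as open where a peak summit, the highest point of a peak, lay within 1 kb of a gene start. Of 17274 protein-coding genes with a listed start, 7033 were open in all 8 libraries, which is 40.7% of them. The table of starts used here has none on chromosome 18, so promoter counts and motif shares leave that chromosome out. A further 432 (2.50%) were open in all 6 cultured libraries and in neither Scf-GFP-negative library, called culture promoters here. The reverse pattern, open in both Scf-GFP-negative libraries and in no culture, was found at 281 (1.63%), called Scf-GFP-negative promoters. The classes ask for presence in 6 lists and in 2, so their sizes are not comparable with each other. Without Scf-GFP-negative replicate 2 there were 669 culture promoters, and without replicate 1 there were 464 Scf-GFP-negative ones. A letter search of RefSeq promoter sequence (build GRCm38.p6, 250 bases before to 50 after the start, both strands) gave the share of starts that hold short motifs. The GATA motif AGATAA, bound by the red cell factor Gata1, lay at 4.12% of culture, 13.5% of Scf-GFP-negative and 4.68% of shared starts, against 9.68% of all 21045 starts. The AP-1 motif TGANTCA, read by Fos and Jun proteins, lay at 10.7% of culture, 4.19% of Scf-GFP-negative and 3.77% of shared starts, against 7.04% of all. The TEAD motif GGAATG lay at 17.1%, 14.8% and 10.3% of culture, Scf-GFP-negative and shared starts, against 13.5% of all. The RUNX motif TGTGGT lay at 13.4%, 21.0% and 10.7% in that order, against 14.7% of all. The ETS motif CCGGAAG lay at 4.94%, 5.81% and 23.1%, against 11.7% of all. Base composition differed beside these shares: the median percentage of bases in CG pairs was 10.7 in culture, 7.33 in Scf-GFP-negative and 15.3 in shared starts, and its part in the motif shares was not tested. GGAATG and CCGGAAG share the letters GGAA, and a match is a string of letters and not a site of binding.

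**Figure D1:**
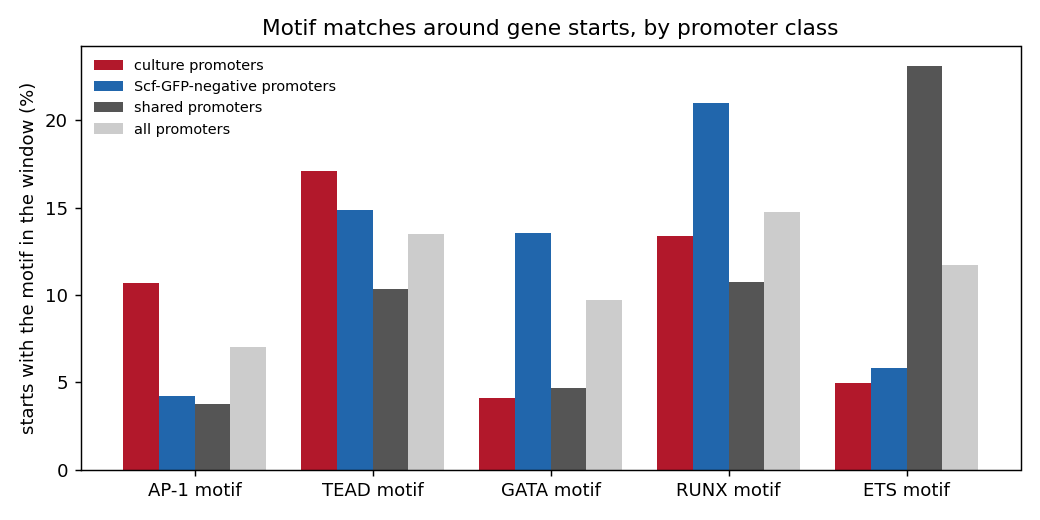
Share of gene starts (vertical axis, %) whose promoter sequence holds each of 5 motifs, by promoter class, with all starts in light grey. GATA matches lay at 13.5% of Scf-GFP-negative and 4.12% of culture starts, AP-1 matches at 10.7% of culture and 4.19% of Scf-GFP-negative starts, and ETS matches at 23.1% of shared starts.

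The 8 promoters below are examples of starts that hold a motif counted above. They were chosen after their values were seen, because they are known genes of their class and hold the motif in the 250 bases before the start, so they do not stand for their class. Each is printed 5′ to 3′ on the strand of its gene, from 250 bases before the start to the start, and capitals mark 1 match of 1 motif on either strand. Other counted motifs are not marked: Kel and Trim10 also hold the AP-1 motif, Trim10 also the RUNX motif, and Mylk the AP-1, RUNX and ETS motifs. Kel, the Kell blood group protein (chr6:41704326-41704575, minus strand), Epb42, a protein of the red cell membrane skeleton (chr2:121036878-121037127, minus strand), and Trim10, a protein of differentiating red cells (chr17:36869324-36869573, plus strand), were open in both Scf-GFP-negative libraries and in no culture, and capitals mark AGATAA or its complement. The Trim10 start was also open in both Scf-GFP-positive libraries, Kel in 1 of them and Epb42 in neither. Ccn1, a matrix protein and a standard target of YAP and TEAD (chr3:145649986-145650235, minus strand), and Mylk, the kinase of smooth muscle myosin light chain (chr16:34784700-34784949, plus strand), were culture promoters with GGAATG. Palld, the stress fibre protein palladin (chr8:61591140-61591389, minus strand), and Il6, the cytokine interleukin 6 (chr5:30012864-30013113, plus strand), were culture promoters with TGANTCA. Cdc20, an activator of mitotic exit (chr4:118437344-118437593, minus strand), was open in all 8 libraries and holds CCGGAAG.
Kel: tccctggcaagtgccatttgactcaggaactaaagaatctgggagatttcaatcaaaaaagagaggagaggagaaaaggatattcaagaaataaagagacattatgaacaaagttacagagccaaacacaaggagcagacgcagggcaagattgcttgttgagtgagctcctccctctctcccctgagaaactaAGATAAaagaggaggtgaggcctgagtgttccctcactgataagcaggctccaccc
Epb42: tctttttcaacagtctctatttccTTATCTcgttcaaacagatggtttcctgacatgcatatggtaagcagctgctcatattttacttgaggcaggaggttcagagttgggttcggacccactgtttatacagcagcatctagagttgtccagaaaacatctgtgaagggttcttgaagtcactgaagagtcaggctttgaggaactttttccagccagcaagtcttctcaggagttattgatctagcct
Trim10: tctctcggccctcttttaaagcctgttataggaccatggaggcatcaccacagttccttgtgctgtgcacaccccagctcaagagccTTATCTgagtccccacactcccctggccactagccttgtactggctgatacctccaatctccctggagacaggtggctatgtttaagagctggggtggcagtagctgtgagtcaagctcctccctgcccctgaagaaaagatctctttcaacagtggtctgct
Ccn1: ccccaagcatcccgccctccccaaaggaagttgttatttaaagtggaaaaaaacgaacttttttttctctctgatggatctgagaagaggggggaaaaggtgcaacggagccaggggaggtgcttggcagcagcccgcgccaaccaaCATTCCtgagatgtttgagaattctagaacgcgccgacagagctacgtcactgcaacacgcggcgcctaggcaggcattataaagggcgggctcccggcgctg
Mylk: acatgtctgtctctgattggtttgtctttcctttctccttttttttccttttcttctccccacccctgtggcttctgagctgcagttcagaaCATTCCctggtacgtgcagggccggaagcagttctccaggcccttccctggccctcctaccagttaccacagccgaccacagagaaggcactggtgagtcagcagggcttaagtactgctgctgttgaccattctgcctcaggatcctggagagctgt
Palld: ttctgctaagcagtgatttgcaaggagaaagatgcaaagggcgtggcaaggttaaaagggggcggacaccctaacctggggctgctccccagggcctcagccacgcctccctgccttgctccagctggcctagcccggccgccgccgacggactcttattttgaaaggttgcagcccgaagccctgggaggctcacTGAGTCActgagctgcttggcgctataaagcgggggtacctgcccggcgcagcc
Il6: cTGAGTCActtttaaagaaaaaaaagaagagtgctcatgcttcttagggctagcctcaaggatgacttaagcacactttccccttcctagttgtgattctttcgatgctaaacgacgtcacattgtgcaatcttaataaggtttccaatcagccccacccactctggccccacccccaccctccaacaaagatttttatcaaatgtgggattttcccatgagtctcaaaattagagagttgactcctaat
Cdc20: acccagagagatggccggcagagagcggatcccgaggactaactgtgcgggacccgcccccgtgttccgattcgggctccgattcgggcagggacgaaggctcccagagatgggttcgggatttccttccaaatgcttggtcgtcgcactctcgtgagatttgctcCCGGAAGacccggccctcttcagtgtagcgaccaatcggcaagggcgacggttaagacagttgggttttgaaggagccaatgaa

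At the Trim10 start no culture had a summit, and in Scf-GFP-negative libraries summits lay 172 and 148 bases before the start with a −log10 p of 35.47 and 54.44. The marked GATA letters begin 163 bases before it. At the Kel start the Scf-GFP-negative summits had a −log10 p of 21.59 and 46.71, and at Epb42 of 18.72 and 21.64, with no summit in any culture. Those summits lay 77 and 84 bases after the Kel start and 109 and 184 after the Epb42 start. The marked GATA letters begin 56 and 226 bases before these starts, so they do not lie at the summits. At Ccn1 the −log10 p was 66.45, 60.79 and 48.36 in rMSC and 32.96, 23.64 and 27.25 in control cultures, with no summit in either Scf-GFP-negative library. The Palld start had a −log10 p of 70.87, 44.46 and 52.3 in rMSC and 36.65, 29.06 and 23.65 in control cultures, again with none in Scf-GFP-negative stroma. At Cdc20 every library had a summit, with a −log10 p of 67.13 to 70.66 in rMSC, 75.63 to 86.55 in control cultures and 24.55 and 48.62 in Scf-GFP-negative stroma. These −log10 p values are the authors' and depend on depth, so their height is not compared between libraries.

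Of 17 red cell genes with a listed start, the number open was 2 in each rMSC library, 3, 2 and 2 in control cultures and 13 and 14 in Scf-GFP-negative libraries. Scf-GFP-negative promoters made up 10 of the 17 and none was a culture promoter, against 1.63% and 2.50% of all genes. Among the 10 were the transcription factors Gata1 and Klf1, the beta globins Hbb-bs and Hbb-bt, the Rh-associated glycoprotein Rhag and beta spectrin Sptb. Of 18 genes of a pan-haematopoietic list, meant for blood cells in general, 1 or 2 were open in each culture and 13 and 14 in Scf-GFP-negative libraries. Of the 18, 11 were Scf-GFP-negative promoters. Ptprc, which encodes the CD45 of the sort, was one of these 11, beside the lymphoid factor Ikzf1, the guanine exchange factor Vav1 and the factors Lyl1 and Myb. None of 12 B cell promoters was open in any of the 8 libraries, and no B cell, T and NK or plasma cell promoter was a Scf-GFP-negative one. The Scf-GFP-positive libraries, sorted with the same lineage gates, had 9 and 8 of the red cell and 9 and 9 of the pan-haematopoietic promoters open. Most open promoters of both lists were thus those of freshly sorted libraries, fewer of them in Scf-GFP-positive ones, and which cells carried them was not tested.

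On the culture side, 7 of 16 collagen promoters were culture promoters, namely Col16a1, Col4a1, Col4a2, Col5a1, Col6a1, Col6a2 and Col8a1. Collagen promoters were open at 9 to 12 of the 16 genes in each culture and at 1 gene in each Scf-GFP-negative library. Of 13 matrix and fibroblast genes, 6 were culture promoters, among them Fbn1, which encodes fibrillin of elastic microfibrils, and Timp1, an inhibitor of matrix proteases. Of 18 growth factors and receptors, 8 were too, among them Egfr, Fgfr2, Met and Pdgfa. The culture promoters also held Kitl itself, which the reporter reads, Foxc1, a factor that maintains marrow reticular cells, Runx2, the master factor of bone formation, and Acta2, smooth muscle actin. By contrast, all 17 promoters of the unfolded protein response, 21 of 22 of the cell cycle and 12 of 12 ubiquitously open ones were open in all 8 libraries, as were those of all 5 transduced genes. Of the 432 culture promoters, 341 were open in both Scf-GFP-positive libraries and 48 in neither. For the 281 Scf-GFP-negative promoters these numbers were 137 and 82. They were 6974 and 8 for the 7033 shared promoters, and 1939 and 6888 for the 9528 genes in none of these classes. The culture promoters with the strongest peaks were Gas1, Unc5b, Emp1, Hspb8 and Dab2, and Hspb8, a small heat shock protein, was open in neither Scf-GFP-positive library. The Scf-GFP-negative promoters with the strongest peaks were Atp8a1, Slc30a10, Mylk3, Hbb-bs and Art4.

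**Figure D2:**
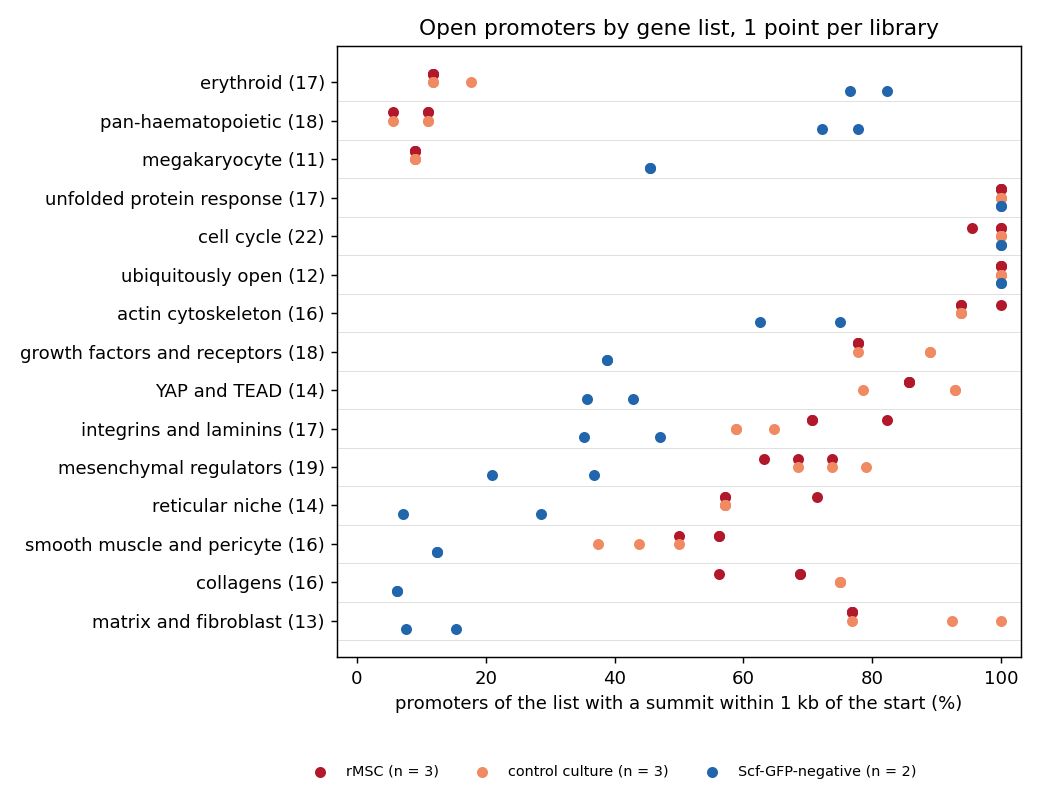
Percentage of the promoters of each gene list with a summit within 1 kb of the start (horizontal axis), 1 point per library, for rMSC, control cultures and Scf-GFP-negative stroma, with the number of genes in brackets. Of 17 red cell promoters 2 or 3 were open in each culture and 13 and 14 in the Scf-GFP-negative libraries, and collagen promoters were open at 1 of 16 genes in each Scf-GFP-negative library.

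To compare whole genes, summits were counted per locus, a gene with the 10 kb before it and after it. Of 21631 protein-coding loci, 9426 averaged at least 2 summits over the means of both classes and were tested with limma, at a Benjamini-Hochberg adjusted p under 0.05 over all of them. In cultured against Scf-GFP-negative stroma, 1319 loci had more summits, 14.0% of those tested, and 3001 had fewer, 31.8%, which makes 45.8% in either direction. The balance turned with the list: 30.5% of calls were toward more summits in equal lists, against 70.8% with all deposited peaks (2739 more, 1132 fewer) and 68.7% with peaks of a −log10 q of at least 5 (2079 more, 947 fewer). Centring each library on its median gave 42.8% and equalising chromosome totals 44.6%. The median log2 change over all tested loci was -0.34 in equal lists, 0.15 with all peaks and 0.14 with the stricter ones, so the number of loci on each side carries no direction of its own. Under all 3 list definitions, 1172 loci had more summits (12.4%) and 596 had fewer (6.32%). The 1172 are of the 1319 and the 596 of the 3001, so over all loci losses dropped out more often than gains. The 6 cultured and 2 Scf-GFP-negative libraries did not overlap at 1054 of the 1319 and at 2507 of the 3001, beside 11.5% and 28.6% of all tested loci that did not overlap in each direction. By a code in the names of the deposited peak lists, read here as the flow cell, replicate 1 of each group was on another flow cell than the rest. Within both flow cells the difference kept its sign at 1319 of the 1319 and 3000 of the 3001. Those loci were called on the same libraries, so this agreement is nearly fixed by the call and tests nothing about the flow cell. The filter lets a locus in on 1 class alone: 1706 of the tested loci averaged under 2 summits in cultures and 927 under 2 in Scf-GFP-negative stroma, and the direction of these was fixed by the filter. Counts over gene lists below therefore describe the tested members and not the whole list. This holds also for lists where the number of such members is not given. In the sentences that follow, log2 changes are of log2(summits + 0.5), with their standard error (SE), and no fold is given where a class had no summit. Summits are small whole numbers, and libraries with the same count leave little spread, so a small SE or p-value can reflect ties.

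Of the 10 largest losses of summits in culture, 4 were at regulators of blood formation, Ikzf1, Tal1, Lmo2 and Bcl11a, and 6 at other genes. Ikzf1, the lymphoid factor Ikaros (chr11:11684962-11772930), had 0 summits in all 6 cultured libraries, against 12 and 19 in Scf-GFP-negative libraries (adjusted p = 2.51e-06). Kit, the receptor of stem cell factor (chr5:75574987-75656722), likewise had 0 in every culture, against 8 and 8 (adjusted p = 3.53e-07). Both loci were thus empty in all cultures and filled in both Scf-GFP-negative libraries. Tal1, which starts blood development (chr4:115056426-115071755), had 0 in each rMSC library, 0, 0 and 2 in control cultures and 11 and 14 in Scf-GFP-negative libraries, a log2 change of -4.30 ± 0.59 (SE, adjusted p = 0.00117). Lmo2, its partner, had 0, 1 and 0 in rMSC, 1, 0 and 0 in control cultures and 14 and 11 in Scf-GFP-negative libraries (log2 change -4.16 ± 0.58, adjusted p = 0.00124). Bcl11a, which represses the early globin genes, had 0, 0 and 0, then 1, 0 and 0, and 13 and 21 summits in the same order of groups. In each of these 3 loci the highest culture lay far below the lower Scf-GFP-negative library. Zfpm1, the Gata1 cofactor Fog1 (chr8:122281856-122337862), had 5, 5 and 2 in rMSC, 2, 3 and 1 in control cultures and 32 and 36 in Scf-GFP-negative libraries (log2 change -3.45 ± 0.39, adjusted p = 0.00048). The other loci with the largest losses were Atp8a1, a lipid flippase, Sema4d, a semaphorin, Ptger3, a prostaglandin receptor, and Arsg, a sulfatase. Zfp982 and Zfp978 were among them too, but they are near copies in one cluster on chromosome 4, so their counts are uncertain.

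Of 22 red cell genes, 14 had a tested locus, and all 14 had fewer summits in cultures, with a median log2 change of -1.99 beside -0.34 over all loci. Of all tested loci 31.8% had fewer, and 8 of the 14 averaged under 2 summits in cultures and so could only fall. The same 14 fell under both rescalings, and 8 of them passed under all 3 list definitions. Hbb-bt, a beta globin (chr7:103812524-103813923), had 0 in all 6 cultures and 6 and 7 in Scf-GFP-negative libraries (adjusted p = 0.000186). Nfe2, an activator of globin genes, had 1, 1 and 1 in rMSC, 1, 1 and 3 in control cultures and 11 and 19 in Scf-GFP-negative libraries (log2 change -3.12 ± 0.35, adjusted p = 0.000485). Klf1, the factor that switches on adult globin, had 3 in each of the 6 cultures, against 8 and 9 (log2 change -1.36 ± 0.10, adjusted p = 6.44e-05). Tfrc, the transferrin receptor, had 2, 2 and 2 in rMSC, 3, 2 and 2 in control cultures and 8 and 6 in Scf-GFP-negative libraries (log2 change -1.49 ± 0.23, adjusted p = 0.00177). Alas2, the first enzyme of haem synthesis in red cells, and Slc4a1, the anion exchanger of their membrane, were too low to test and had 0 summits in every culture and 2 to 4 in each Scf-GFP-negative library. Summed over the 22 listed loci, there were 21 to 26 summits in rMSC, 26 to 33 in control cultures, 132 and 145 in Scf-GFP-negative stroma and 53 and 55 in Scf-GFP-positive stroma. The red cell signal was thus highest in Scf-GFP-negative stroma, lower in Scf-GFP-positive stroma and lowest in cultures, and how much of the other losses moves with it was not tested.

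Of 17 pan-haematopoietic loci tested, 11 had fewer summits in cultures and 1 had more, and 4 of the losses passed under all 3 list definitions, beside 31.8% fewer, 14.0% more and 6.32% fewer under all 3 among all tested loci. Of the 17, 8 averaged under 2 summits in cultures. Lcp1, the leukocyte actin bundler, had 0, 0 and 0 in rMSC, 1, 0 and 0 in control cultures and 8 and 9 in Scf-GFP-negative libraries (log2 change -3.90 ± 0.48, adjusted p = 0.000674). Ptprc had 2 summits in each culture and 5 and 5 in Scf-GFP-negative libraries (log2 change -1.14 ± 0.07, adjusted p = 3.22e-05), but missed the threshold with all deposited peaks, at an adjusted p of 0.0637. It did not pass in peaks with a −log10 q of at least 5 either. Vav1 passed in equal lists only and under neither rescaling, with a log2 change of -0.53 in equal lists and 0.18 in peaks of a −log10 q of at least 5. Itgb2, a leukocyte integrin, was the one with more, at 4, 3 and 4 in rMSC, 3, 3 and 3 in control cultures and 2 and 1 in Scf-GFP-negative libraries (adjusted p = 0.0059). Both tested mast cell loci, Kit and Gata2, fell. In the platelet lineage 4 of 8 loci fell, led by Gfi1b with 0, 0 and 0 in rMSC, 0, 1 and 0 in control cultures and 8 and 10 in Scf-GFP-negative libraries. Of these 4 losses, 2 passed under all 3 list definitions. Of the 8 platelet loci, 3 averaged under 2 summits in cultures and 1 under 2 in Scf-GFP-negative stroma. Gata2, active in stem and mast cells, fell by 1.62 ± 0.25 on the log2 scale (adjusted p = 0.00202). Lymphoid, myeloid and endothelial lists had few tested members: 1 of 2 B cell, 3 of 5 T and NK and 2 of 3 myeloid loci fell. None of the B cell or T and NK losses passed under all 3 list definitions, and 1 of the myeloid ones did. Of the 5 T and NK loci 1 rose, Bcl11b, with 9, 8 and 11 summits in rMSC, 5, 5 and 2 in control cultures and 0 and 0 in Scf-GFP-negative libraries (adjusted p = 0.000147). Of 4 endothelial loci, Stab2, a scavenger receptor, rose (log2 change 2.82 ± 0.39) and Erg fell in equal lists only, with a log2 change of -1.20 that turned to 0.40 in peaks of a −log10 q of at least 5.

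**Figure D3:**
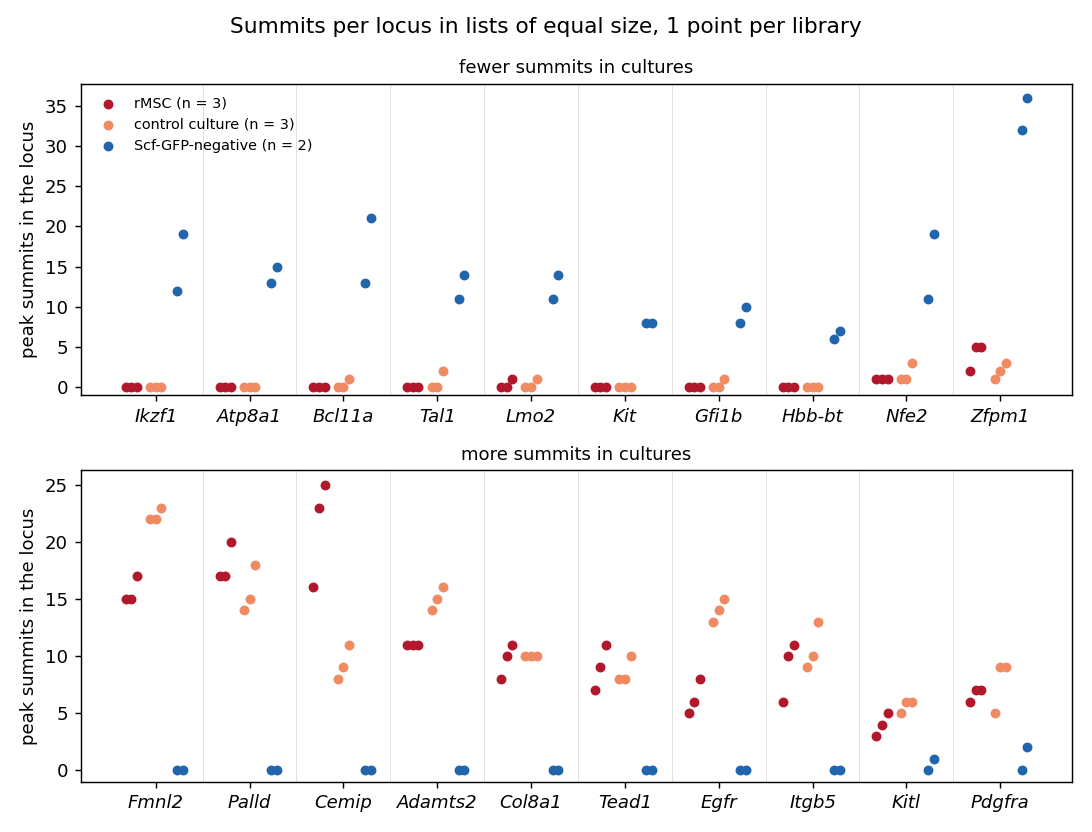
Peak summits in each of 20 loci (vertical axis, number per locus in lists of equal size), 1 point per library, for rMSC, control cultures and Scf-GFP-negative stroma. The upper panel shows loci with fewer summits in cultures, where both Scf-GFP-negative libraries lie above all 6 cultures, and the lower panel those with more, 8 of them with 0 in both Scf-GFP-negative libraries.

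Fmnl2, Palld and Cemip were among the 10 largest gains of summits in cultures. Fmnl2, a formin that drives actin assembly at the leading edge (chr2:52857717-53134202), had 15, 15 and 17 summits in rMSC, 22, 22 and 23 in control cultures and 0 and 0 in Scf-GFP-negative libraries (adjusted p = 4.79e-07). Palld (chr8:61511431-61902707) had 17, 17 and 20 in rMSC and 14, 15 and 18 in control cultures, with 0 and 0 in Scf-GFP-negative libraries (adjusted p = 4.79e-07). Cemip, which binds and degrades hyaluronan (chr7:83932857-84086693), had 16, 23 and 25 in rMSC, 9, 8 and 11 in control cultures and 0 and 0 in Scf-GFP-negative libraries (adjusted p = 0.000134). At these 3 loci every culture had at least 8 summits and neither Scf-GFP-negative library had any. Of the 1319 loci with more summits, 156 had none in either Scf-GFP-negative library, and of the 3001 with fewer, 31 had none in any culture. Other loci among the largest gains were Adamts2, which trims procollagen, Mcc, Eml1, which binds microtubules, Glis3, a zinc finger factor, Dlc1, a tumour suppressor, and Fat1, an atypical cadherin.

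Of 27 matrix and fibroblast genes, 13 had a tested locus, 11 with more summits and none with fewer, beside 14.0% with more among all loci, and 10 of the 11 passed under all 3 list definitions. However, 12 of the 13 averaged under 2 summits in Scf-GFP-negative stroma and so could only rise. Their median log2 change was 2.51, or 1.98 where a class with no summit was set to 3 summits over its libraries, a floor that leaves the median of all loci at -0.34. Lox, which crosslinks collagen, had 4, 5 and 5 in rMSC, 6, 4 and 6 in control cultures and 0 and 0 in Scf-GFP-negative libraries (adjusted p = 2.72e-05). Tnc, the glycoprotein tenascin C, had 6, 7 and 6 in rMSC, 5, 6 and 5 in control cultures and 0 and 0 in Scf-GFP-negative libraries (adjusted p = 5.6e-05). Fbn1 had 5, 6 and 6 in rMSC, 15, 15 and 16 in control cultures and 1 and 0 in Scf-GFP-negative libraries (log2 change 3.51 ± 0.36, adjusted p = 0.000301). Over the 27 listed loci there were 94 to 100 summits in rMSC, 107 to 122 in control cultures, 12 and 11 in Scf-GFP-negative stroma and 101 and 84 in Scf-GFP-positive stroma. The summed matrix signal of the cultures thus lay near that of Scf-GFP-positive stroma.

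Collagens followed the same direction: 11 of 14 tested loci had more summits, none fewer, and 10 passed under all 3 list definitions, while 9 of the 14 averaged under 2 summits in Scf-GFP-negative stroma. Among all tested loci 14.0% had more summits and 31.8% fewer, or 12.4% and 6.32% under all 3 list definitions. The median log2 change was 2.07, or 1.67 with the floor. Col8a1, a short-chain collagen of vessel walls (chr16:57624256-57754737), had 8, 10 and 11 in rMSC, 10, 10 and 10 in control cultures and 0 and 0 in Scf-GFP-negative libraries (adjusted p = 6.75e-06). Col4a2, a chain of basement membrane, had 13, 12 and 14 in rMSC, 13, 14 and 16 in control cultures and 3 and 0 in Scf-GFP-negative libraries (log2 change 3.42 ± 0.61, adjusted p = 0.00363). Col1a1, the main chain of bone and skin collagen, had 7, 6 and 5 in rMSC, 8, 6 and 7 in control cultures and 1 and 2 in Scf-GFP-negative libraries (log2 change 1.84 ± 0.22, adjusted p = 0.00061). Of 18 integrin and laminin loci, 7 rose and 2 fell, 6 and 1 of them under all 3 list definitions. Of the 18, 5 averaged under 2 summits in Scf-GFP-negative stroma and 2 under 2 in cultures. Itgb5, which pairs with Itgav to bind vitronectin, had 11, 10 and 6 in rMSC, 9, 10 and 13 in control cultures and 0 and 0 in Scf-GFP-negative libraries (adjusted p = 1.46e-05), and Itga4, an integrin of blood cells, fell by 2.71 ± 0.45 on the log2 scale (adjusted p = 0.00278).

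Of 14 loci of the YAP and TEAD pathway, which carries mechanical signals to the nucleus, 9 had more summits and 2 fewer. The 9 gains passed under all 3 list definitions and neither loss did. Among all tested loci 14.0% had more and 31.8% fewer, and 1172 of 1319 gains but 596 of 3001 losses passed under all 3. Of the 14, 8 averaged under 2 summits in Scf-GFP-negative stroma. Tead1, a DNA-binding partner of YAP (chr7:112679356-112906784), had 7, 11 and 9 in rMSC, 8, 10 and 8 in control cultures and 0 and 0 in Scf-GFP-negative libraries (adjusted p = 5.21e-06). Wwtr1, which encodes the YAP paralogue TAZ, had 5, 6 and 6 in rMSC, 7, 7 and 8 in control cultures and 0 and 0 in Scf-GFP-negative libraries (adjusted p = 7.41e-07). Yap1 itself changed less, with 6, 5 and 6 in rMSC, 5, 6 and 4 in control cultures and 2 and 3 in Scf-GFP-negative libraries (log2 change 0.97 ± 0.20, adjusted p = 0.00615). Of 19 actin loci, 10 had more summits, all under the 3 list definitions, and 2 had fewer. Of the 19, 4 averaged under 2 summits in Scf-GFP-negative stroma and 1 under 2 in cultures. Palld, described above, was among the 10. In the smooth muscle list 3 of 10 loci rose and 2 fell, but neither rescaling nor the other lists gave a loss. Of these 10 loci, 3 averaged under 2 summits in Scf-GFP-negative stroma and 1 under 2 in cultures. Mylk had 9, 11 and 5 in rMSC, 10, 9 and 7 in control cultures and 0 and 0 in Scf-GFP-negative libraries (adjusted p = 3.21e-05).

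Growth factors and their receptors gained at 10 of 19 tested loci, all under the 3 list definitions, and lost at 1, and 10 of the 19 averaged under 2 summits in Scf-GFP-negative stroma. Over all tested loci 14.0% gained and 31.8% lost, or 12.4% and 6.32% under all 3 list definitions. Egfr, the receptor of epidermal growth factor (chr11:16752203-16913907), had 6, 5 and 8 in rMSC, 15, 14 and 13 in control cultures and 0 and 0 in Scf-GFP-negative libraries (adjusted p = 1.5e-05). Fgfr2, a receptor of fibroblast growth factors, had 10, 5 and 9 in rMSC, 4, 8 and 7 in control cultures and 0 and 0 in Scf-GFP-negative libraries (adjusted p = 0.000104). The single loss was Pdgfd, with 5, 6 and 4 in rMSC, 0, 0 and 0 in control cultures and 4 and 7 in Scf-GFP-negative libraries. Here the control cultures stood apart and rMSC overlapped the Scf-GFP-negative libraries, so the pooled call (adjusted p = 0.000662) describes control cultures: against Scf-GFP-negative stroma the adjusted p was 5.55e-05 for control cultures and 0.788 for rMSC.

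Mesenchymal regulators gained at 10 of 18 tested loci, all under the 3 list definitions, and lost at 3, none of which passed under all 3. Over all tested loci 14.0% gained and 31.8% lost, with 1172 of 1319 gains and 596 of 3001 losses passing under all 3. Of the 18, 7 averaged under 2 summits in Scf-GFP-negative stroma. Meis2, a homeobox cofactor, had 5, 6 and 3 in rMSC, 6, 5 and 6 in control cultures and 0 and 0 in Scf-GFP-negative libraries (adjusted p = 2.86e-05). Tbx15, a factor of the limb skeleton, had 10, 8 and 9 in rMSC, 9, 9 and 11 in control cultures and 0 and 1 in Scf-GFP-negative libraries (log2 change 3.50 ± 0.39, adjusted p = 0.000443). Of 13 tested Hox loci, 7 of which averaged under 2 summits in Scf-GFP-negative stroma, 5 rose, and 11 of 12 with chromosome totals equalised. The 5 were Hoxc4, Hoxc6, Hoxc8, Hoxc9 and Hoxc10, which are neighbours in the HoxC cluster and share summits, and no Hox locus fell. Hoxc6 had 10, 11 and 8 in rMSC, 6, 5 and 8 in control cultures and 0 and 0 in Scf-GFP-negative libraries (adjusted p = 3.2e-05).

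Of 20 niche genes, 11 had a tested locus, of which 10 had more summits, 9 of them under all 3 list definitions, with a median log2 change of 2.02, or 2.00 with the floor, and 7 of the 11 averaged under 2 summits in Scf-GFP-negative stroma. Among all tested loci 14.0% had more summits and 31.8% fewer, or 12.4% and 6.32% under all 3 list definitions. Kitl (chr10:100015615-100100416) had 4, 3 and 5 in rMSC, 6, 6 and 5 in control cultures and 1 and 0 in Scf-GFP-negative libraries, a log2 change of 2.59 ± 0.50 (SE, adjusted p = 0.00531), and the gate on its reporter chose the cells on both sides. Pdgfra, a receptor that marks marrow mesenchymal cells (chr5:75151322-75198206), had 7, 6 and 7 in rMSC, 5, 9 and 9 in control cultures and 2 and 0 in Scf-GFP-negative libraries (log2 change 2.75 ± 0.57, adjusted p = 0.00695). Csf1, the macrophage growth factor, had 11, 9 and 7 in rMSC, 6, 5 and 7 in control cultures and 0 and 1 in Scf-GFP-negative libraries (log2 change 3.17 ± 0.42, adjusted p = 0.000971). Ccl2, a monocyte chemokine, had 3, 5 and 3 in rMSC, 4, 5 and 5 in control cultures and 0 and 0 in Scf-GFP-negative libraries (adjusted p = 3.98e-05). Angpt1, which quiets blood stem cells through its receptor Tek, was the one niche locus with fewer, by 0.75 ± 0.21 on the log2 scale (adjusted p = 0.0246), in equal lists only and not after centring. Lepr and Cxcl12 were too low to test: Lepr had 0 summits in all 6 cultures and 1 and 0 in Scf-GFP-negative libraries, and Cxcl12 had 3, 2 and 2 in rMSC, 2, 4 and 3 in control cultures and 1 and 0. Among bone genes 5 of 7 loci rose, including Sparc, a matrix protein of bone (log2 change 3.20 ± 0.37, adjusted p = 0.000499), and 1 fell, Sp7, the factor osterix of bone-forming cells. Of the 7, 4 averaged under 2 summits in Scf-GFP-negative stroma, and all 4 were among the 5 that rose. Sp7 had 2, 4 and 5 in rMSC, 2, 2 and 2 in control cultures and 5 and 5 in Scf-GFP-negative libraries (log2 change -0.81 ± 0.26, adjusted p = 0.0387), so the groups overlapped, and it passed in equal lists only and neither after centring (adjusted p = 0.0979) nor without any 1 of 6 of the 8 libraries. Of the transduced genes only Ostf1 passed, with 4, 5 and 4 in rMSC, 5, 5 and 4 in control cultures and 3 and 1 in Scf-GFP-negative libraries (log2 change 1.12 ± 0.30, adjusted p = 0.019). Klf7, Irf3 and Irf7 did not pass, with adjusted p of 0.0539, 0.54 and 0.623, and Xbp1 was too low to test.

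**Figure D4:**
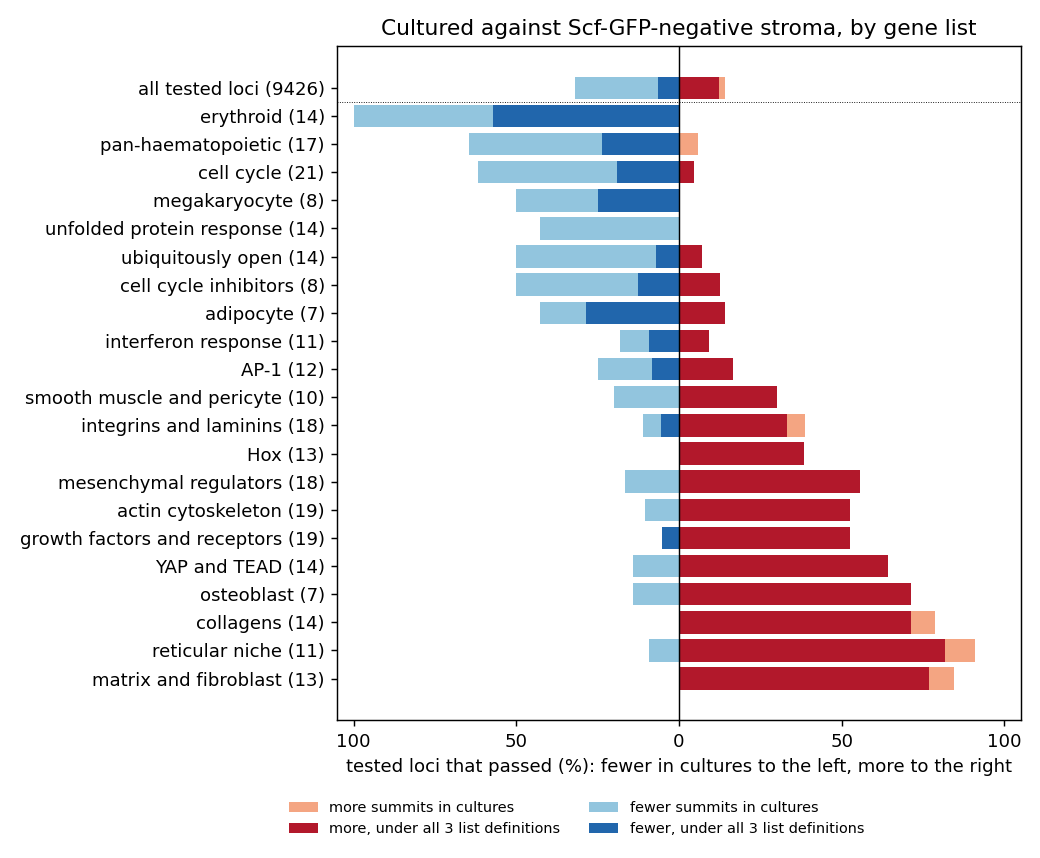
Percentage of tested loci of each gene list (number in brackets) with more summits in cultures, to the right of 0, or fewer, to the left. Dark bars are loci that passed under all 3 list definitions, and the top row is all 9426 tested loci. All 14 red cell loci fell, and matrix, niche and collagen loci rose with no member or 1 falling.

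Other lists leaned less or leaned with the list definition. Of 21 cell cycle loci 13 had fewer summits in cultures and 1 had more, but 8 fell under either rescaling and 4 of the 13 passed under all 3 list definitions. Cdk6, a kinase of the first growth phase, had 6, 6 and 4 in rMSC, 6, 8 and 6 in control cultures and 26 and 32 in Scf-GFP-negative libraries (log2 change -2.20 ± 0.18, adjusted p = 0.000121). Mki67, the proliferation antigen, had 2, 2 and 2 in rMSC, 2, 3 and 2 in control cultures and 8 and 14 in Scf-GFP-negative libraries (log2 change -2.07 ± 0.22, adjusted p = 0.000331), while its promoter was open in all 8. Ccnd1, cyclin D1, was the one that rose (log2 change 1.05 ± 0.31, adjusted p = 0.0284). In the unfolded protein response 6 of 14 loci fell and none rose in equal lists, while none fell and 2 of 16 rose with all deposited peaks. Centring gave 5 lower and 1 higher, and equal chromosome totals 4 lower and 2 higher. Eif2ak3, the stress kinase PERK, turned with the list and passed both ways, with a log2 change of -0.93 in equal lists (adjusted p = 0.0064, or 0.0545 without Scf-GFP-negative replicate 2) and 0.83 in peaks of a −log10 q of at least 5 (adjusted p = 0.0344). Of 14 ubiquitously open loci 7 were lower in equal lists, 5 under either rescaling, and 2 of 15 with all peaks. Interferon response loci fell at 2 of 11 and rose at 1, and AP-1 genes fell at 3 of 12 and rose at 2, shares of losses below the 31.8% of all loci. Under all 3 list definitions, 1 loss and 1 gain of the interferon list passed, and 1 loss and 2 gains of the AP-1 list. Fat cell loci fell at 3 of 7 and rose at 1, while with all deposited peaks 2 fell and 5 rose. Cd36, a fatty acid carrier, had 0 summits in every culture and 6 and 4 in Scf-GFP-negative libraries (adjusted p = 4.53e-06). The 1 that rose was Zfp423, a factor of fat cell precursors, with 3, 3 and 5 in rMSC, 7, 9 and 7 in control cultures and 0 and 0 in Scf-GFP-negative libraries (adjusted p = 1.68e-05). In the cartilage list 1 of 4 loci rose, Comp, a cartilage matrix protein, with 4, 4 and 5 in rMSC, 2, 3 and 3 in control cultures and 1 and 1 in Scf-GFP-negative libraries (log2 change 1.37 ± 0.19, adjusted p = 0.00117). In the same list Sox5 and Sox6 fell in equal lists and not with all deposited peaks, where the adjusted p was 0.0819 and 0.129. Cell cycle inhibitors fell at 4 of 8 and rose at 1, with 1 loss and 1 gain under all 3 list definitions. Of 3 tested loci from other organs 1 fell in equal lists and none under either rescaling, of 2 plasma cell loci 1 rose, and of 6 Schwann and neural loci 2 rose and 1 fell.

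Against Scf-GFP-negative stroma, control cultures had more summits at 1192 loci (12.6%) and fewer at 2742 (29.1%), together 41.7%. The rMSC had more at 1237 (13.1%) and fewer at 2576 (27.3%), together 40.5%. Both comparisons use the same Scf-GFP-negative libraries. The red cell list had 14 of 14 loci lower in control cultures and 13 of 14 in rMSC, the matrix list 12 and 11 of 13 higher, and the niche list 10 and 9 of 11 higher. Vgll3, a TEAD cofactor, had 4, 4 and 4 in rMSC, 8, 8 and 7 in control cultures and 0 and 0 in Scf-GFP-negative libraries (adjusted p = 4.79e-07), so both cultures gained it to different levels. Nfia, a CCAAT-binding factor, had 9, 9 and 8 in rMSC, 22, 17 and 17 in control cultures and 25 and 27 in Scf-GFP-negative libraries. Its difference from Scf-GFP-negative stroma was larger in rMSC (log2 change -1.53, adjusted p = 0.000151) than in control cultures (-0.48, adjusted p = 0.0236), and the test of the difference between both cultures gave an adjusted p of 0.00591. The pooled loss of Nfia passed in equal lists and not in the other 2 lists.

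Promoter peaks were largely shared and distal peaks largely were not. Of the promoter peaks in each culture, 75.6% to 76.8% overlapped a peak in both Scf-GFP-negative lists, while 10.1% to 11.3% of distal peaks did. Of the Scf-GFP-negative promoter peaks, 64.9% and 62.9% overlapped a peak in all 6 cultures, and 7.21% and 9.18% of the distal ones. Merging the 8 lists gave 104986 regions. Regions in all 6 cultures and neither Scf-GFP-negative list numbered 785 at promoters and 5959 distal ones, and regions in both Scf-GFP-negative lists and no culture numbered 886 and 6569. Shared regions were 6863 at promoters and 1493 distal. A further 189 culture, 166 Scf-GFP-negative and 1173 shared regions lay by an end of a gene with no listed start and were counted as neither. Asking for 1 Scf-GFP-negative list in place of both gave 18239 Scf-GFP-negative distal regions without replicate 1 and 21178 without replicate 2, and 2377 and 2042 at promoters. Culture distal regions lay a median of 25908 bp from a gene start, with 14.4% beyond 100 kb, and Scf-GFP-negative distal regions 14189 bp, with 6.95% beyond 100 kb. Over whole lists the median distance of distal summits was 22695 ± 720 bp in cultures (SD, n = 6) and 14616 ± 2743 bp in Scf-GFP-negative libraries (SD, n = 2), with an exact permutation p of 0.0357, the smallest that 28 groupings allow, and an adjusted p of 0.0714 over 6 measures. The share of peaks at gene starts was 25.6% ± 0.473 in cultures and 27.7% ± 0.881 in Scf-GFP-negative libraries (exact permutation p = 0.0357, adjusted p = 0.0714), a difference that turned to 0.0647 percentage points in favour of cultures with a 500 bp window. Median peak width was 486 ± 34.6 bp in cultures and 366 ± 62.9 bp in Scf-GFP-negative libraries (exact permutation p = 0.0357, adjusted p = 0.0714). That difference of 120.1 bp in equal lists was 14.5 bp with all deposited peaks (exact permutation test, adjusted p = 0.714). None of the 6 measures passed the adjusted threshold.

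Looked up in Scf-GFP-positive stroma, 31.4% of culture distal regions were in both lists and 54.4% in neither. Of Scf-GFP-negative distal regions 13.9% were in both and 63.1% in neither, and of all distal regions 11.9% and 77.8%. The strongest culture distal region lay in Camk2d, a calcium-dependent kinase (chr3:126830997-126832503), with a −log10 p of 197.31, 156.56 and 229.08 in rMSC, 111.45, 116.02 and 113.75 in control cultures and no peak in Scf-GFP-negative libraries. The next lay 8606 bp from the start of Serpina3n, a serine protease inhibitor (chr12:104415314-104416403), and was in neither Scf-GFP-positive list. Others lay near Kif21a, in Hmga2, a chromatin protein of dividing mesenchyme (chr10:120421797-120423469), and 59597 bp from Nr2f2, a nuclear receptor of mesenchyme. The Camk2d and Hmga2 regions were in both Scf-GFP-positive lists, and the Kif21a and Nr2f2 ones in neither. The strongest Scf-GFP-negative distal region lay 11892 bp from Rbm38, an RNA-binding protein (chr2:173036469-173039127), with a −log10 p of 62.93 and 82.91 there and no peak in any culture. The next lay 4921 bp from Mki67 (chr7:135721300-135722772), and others lay in Sema4b, in Ranbp10 and near Zdhhc19. All 5 of these were in both Scf-GFP-positive lists, at a −log10 p of 9.23 to 21.67. The strongest shared distal region (chr2:98666071-98667498) reached a −log10 p of 138649.69 in a Scf-GFP-negative library and is not described further.

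**Figure D5:**
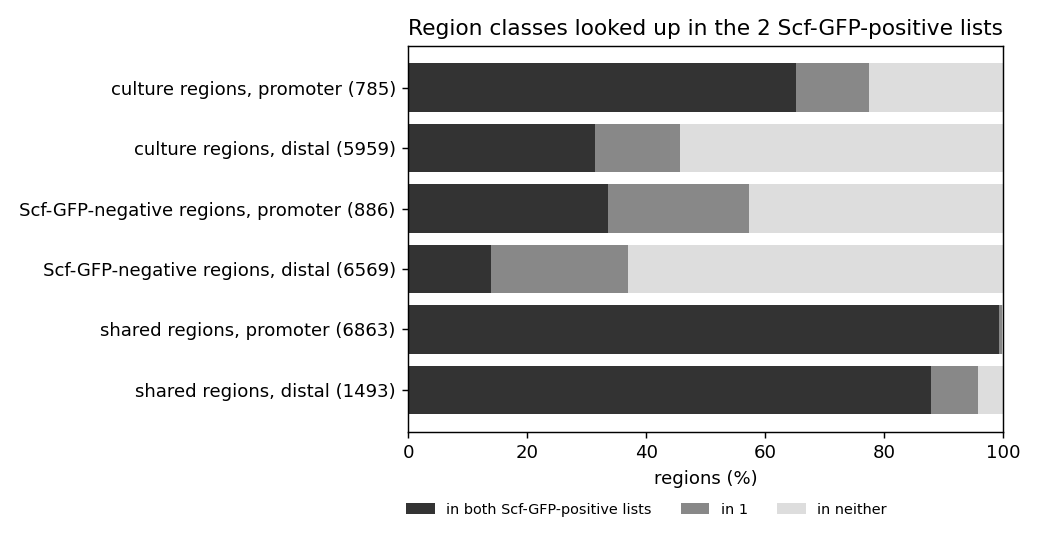
Percentage of regions of each class (horizontal axis, number of regions in brackets) found in both, in 1 or in neither of the Scf-GFP-positive lists. Shared regions were nearly all in both, while 31.4% of culture distal regions and 13.9% of Scf-GFP-negative distal regions were.

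Some loci held both kinds of distal site, which a summit count per locus does not show. Culture distal regions lay in 2953 loci (13.7%) and Scf-GFP-negative ones in 3947 (18.2%), and 806 loci held both, which is 27.3% of the first and 20.4% of the second. At 36 loci there were at least 3 of each. The locus Cacna1c, of a calcium channel, held 5 culture and 5 Scf-GFP-negative distal regions. Its summit counts were 13, 15 and 14 in rMSC, 15, 17 and 15 in control cultures and 23 and 8 in Scf-GFP-negative libraries and did not pass the test (log2 change 0.11 ± 0.33, adjusted p = 0.803). The Scf-GFP-negative libraries lay on either side of the cultures there, and the change was 0.85 without replicate 1 (adjusted p = 0.00825) and -0.62 without replicate 2 (adjusted p = 0.025), and 0.72 with chromosome totals equalised (adjusted p = 0.0227). Runx1, the factor that specifies blood stem cells (chr16:92601466-92826074), held 3 culture and 11 Scf-GFP-negative distal regions, with 11, 16 and 11 summits in rMSC, 11, 13 and 10 in control cultures and 20 and 18 in Scf-GFP-negative libraries (log2 change -0.66 ± 0.17, adjusted p = 0.0157, in equal lists only and under neither rescaling). Foxp1, a forkhead factor, held 5 and 3, and Notch2, a receptor of cell contact signals, held 3 and 9. The loci with the most culture distal regions were Aopep with 12, Dst with 10 and Asap1 with 9, and those with the most Scf-GFP-negative ones were Gse1 with 16, Dapp1 with 13 and Chst11 with 12. These 10 loci were chosen after their values were seen.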

How the data were processed

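ATAC-seq libraries of 2700 to 5000 cells were read as pairs of 100 bp, per the labels' protocols. Reads were aligned to mm10 with BWA and peaks called with MACS2, per the submitters' processing notes, with no version or setting stated in the labels. The authors deposited 1 peak list per library, with each peak's fold over background (a ratio) and its −log10 p-value and −log10 q-value, and its position and score. Depth is unknown, which limits what a missing peak shows.

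Each list was trimmed to its 39912 strongest peaks by −log10 p. Summits were counted per protein-coding locus (RefSeq, GRCm38.p6, with 10 kb on either side) and log2(summits + 0.5) was fitted with limma 3.58.1 (R 4.3.3), with all 4 groups of the series in 1 fit and Benjamini-Hochberg adjustment over 9426 loci. The contrast was the mean of both culture groups against Scf-GFP-negative stroma. The same steps were checked on simulated data with known changes. Measures of whole lists were compared with exact permutation tests, two-sided.

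Members, gene lists and tests were chosen with earlier results of these data known. The loci named include members of the 10 largest non-overlapping changes in each direction, up to 4 passing members per direction of each list, and the gate, niche and transduced genes. Others, among them Klf1, Tfrc, Yap1 and Vav1, lie outside this rule and were chosen after their values were seen. Alternatives covered list definition, fitted libraries, pseudocount, filter, flank, scaling, replicate block, flow cell, promoter window, overlap and each library left out.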

Additional observations from a re-analysis of the deposited data

Results flagged for a closer look

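The difference between rMSC and control cultures passed the test at 6 named loci (limma, Benjamini-Hochberg adjusted), although both were set against the same Scf-GFP-negative libraries. Among all 9426 tested loci it passed at 243. On the log2 scale, rMSC minus control was 3.44 at Pdgfd (adjusted p = 0.000836), 1.46 at Hoxc9 (adjusted p = 0.0409), -1.06 at Nfia (adjusted p = 0.00591), -0.996 at Zfp423 (adjusted p = 0.0487), -0.86 at Vgll3 (adjusted p = 0.00427) and -0.43 at Adamts2 (adjusted p = 0.0493).

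Chromosome Y, outside every comparison above, held 17 to 22 peaks in cultured libraries, 114 in Scf-GFP-negative replicate 1 and 24 in Scf-GFP-negative replicate 2.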

How the results depend on the processing

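How many loci passed depended on the peak list, the filter and the flank. In cultured against Scf-GFP-negative stroma, loci with more and fewer summits numbered 2739 and 1132 with all deposited peaks, and 2079 and 947 with a −log10 q of at least 5. For control cultures these were 2258 and 1057, then 1854 and 827, and for rMSC 2671 and 783, then 1909 and 788. With no filter on low values, loci with more summits were 2541 in cultured, 2253 in control and 2377 in rMSC comparisons. Gene bodies without flanks gave 804 and 1077, 755 and 981, and 761 and 932 in the same order. Leaving out each library in turn gave 1098 to 1224 with more and 2114 to 2747 with fewer in the cultured comparison, 996 to 1145 and 2066 to 2606 in the control one, and 1024 to 1202 and 1854 to 2441 in the rMSC one. Those are counts per fit, and they do not show how many loci passed in every fit. Among the loci described above, a −log10 q of at least 5 reversed Vav1 (0.18), Erg (0.40) and Irf7 (0.039), none of which passed there, and Eif2ak3 (0.83), which did. Irf7 ran from -0.45 to 0.039 with a library left out, and the locus Cacna1c from -0.6205 to 0.8467.

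Classes of sites moved too. All deposited peaks gave 1249 culture promoter regions, 11302 culture distal regions and 147 Scf-GFP-negative promoters. A −log10 q of at least 5 gave 519 Scf-GFP-negative promoter regions, 4038 distal regions and 179 promoters. Asking for 0.5 of a region to be covered left 3326 culture distal, 2645 shared promoter and 439 shared distal regions. A 500 bp window gave 589 Scf-GFP-negative promoter regions and turned the difference in peaks at gene starts to 0.06473 percentage points (adjusted p = 0.893 by the exact permutation test). With each library left out, Scf-GFP-negative distal regions ran from 6637 to 21178, Scf-GFP-negative promoter regions from 913 to 2377, Scf-GFP-negative promoters from 289 to 464 and culture promoters from 451 to 669. Fewer lists asked for make a class larger by construction. For the other changes the cause was not tested.

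With the replicate block 1148 loci had more and 2527 fewer summits in cultures. Deviations from the group mean correlated little between libraries with the same replicate number (r from -0.0203 to 0.0129). With 2 or 3 libraries in a group, such values cannot exclude that the numbers pair the libraries. Replicate 1 of each group shared a flow cell.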
